A study of Homo sapiens with 2 samples.

Results

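Long noncoding RNAs that are widely studied for their place in the nucleus or the cytoplasm were followed through a pull-down of TOP3B, an enzyme that untangles both DNA and RNA. The members were the rows of the deposited expression table whose symbol was MALAT1, NEAT1, LINC00657 (the former symbol of NORAD), FTX, JPX, TUG1, OIP5-AS1 or KCNQ1OT1. Of 13075 rows, 11 carried one of these 8 symbols. They comprised 7 rows of whole genes and 4 short rows, each covering a stretch of JPX, NEAT1, TUG1 or FTX. KCNQ1OT1 was not analysed here.

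The cells were HEK293, a human embryonic kidney line, at passage 15, and both libraries came from cells given a FLAG-tagged TOP3B with the R338W substitution by transfection. The RIP library (RNA immunoprecipitation) held RNA recovered from the lysate with a monoclonal anti-FLAG antibody, and the input library was made without an antibody. Each group held 1 library, so no difference below has a replicate check and no test was run. No pull-down from untransfected cells was analysed here, so binding to TOP3B and background on the beads cannot be told apart.

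Long noncoding RNAs are transcripts that act without being translated, and where they stay in the cell shapes what they can touch. MALAT1 gathers in nuclear speckles, bodies rich in splicing factors, and NEAT1 builds paraspeckles, a neighbouring kind of nuclear body. MALAT1 and the long NEAT1 transcript end in a triple helix in place of an ordinary poly(A) tail, after RNase P has cut off a tRNA-like tail. JPX and FTX lie beside XIST, the RNA that coats the inactive X chromosome, and are known as its activators. NORAD and OIP5-AS1 are known mainly from the cytoplasm, where NORAD binds Pumilio proteins and OIP5-AS1 (also called Cyrano) binds the miRNA miR-7 and the stabilising protein HuR. TUG1 is found in both compartments.

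Sequence elements for which some of these RNAs are known are printed here. The first pair are the 3′ regions of MALAT1 (chr11:65506027-65506116, plus strand) and of the long NEAT1 transcript (chr11:65445451-65445540, plus strand) in GRCh38, from GENCODE 29. Capitals mark 3 runs of bases found in both in the same order. AAAAAGCAAAA closes NEAT1, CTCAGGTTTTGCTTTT is the longest run shared before it within the window, and TTTCTTTT is the longest shared run before that. They are shown because MALAT1 and the long NEAT1 transcript share this end, while the 2 genes lay on opposite sides of the input. The NEAT1 ratio is of the whole gene, not of the long transcript alone.
MALAT1: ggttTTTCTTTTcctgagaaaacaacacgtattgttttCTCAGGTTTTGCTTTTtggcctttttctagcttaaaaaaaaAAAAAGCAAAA
NEAT1: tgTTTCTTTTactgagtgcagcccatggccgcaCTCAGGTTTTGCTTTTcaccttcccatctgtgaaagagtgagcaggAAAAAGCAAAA
The NEAT1 tract closes its annotated transcript. That of MALAT1 lies 353 bases before the end of its longest annotated transcript. Of 163 other long noncoding transcripts within 75% to 125% of the MALAT1 length, 7 (4.29%) held AAAAAGCAAAA on the sense strand, and of 11 of similar length to NEAT1, 4 (36.36%) did. JPX also held 1 such run, so the run is not particular to these ends.

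NORAD is known for repeated Pumilio elements, read here as TGTANATA on the sense strand. Its single annotated transcript of 5339 bases held 15, or 2.81 per kb, between positions 761 and 4599 from the 5′ end. Among 814 other long noncoding transcripts of similar length 35.9% held at least 1, and 0.25% held 15 or more. The windows below are shown because NORAD had the lowest ratio of the whole genes. Elements are in capitals, and 3 windows hold a close pair.
NORAD, chr20:36049803-36049832, minus strand: cctcactactgTGTATATAgttgacaatgc
NORAD, chr20:36049702-36049731, minus strand: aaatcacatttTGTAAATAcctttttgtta
NORAD, chr20:36049501-36049530, minus strand: ttacttatctgTGTATATAgTGTACATAaa
NORAD, chr20:36048304-36048333, minus strand: ctttgctatacTGTATATAtTGTATATAta
NORAD, chr20:36047971-36048000, minus strand: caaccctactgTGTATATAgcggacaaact
NORAD, chr20:36047668-36047697, minus strand: ttactgtgctgTGTATATAgTGTATATAag
The longest annotated transcripts of the other members held fewer elements: 7 in FTX (12267 bases), 6 in NEAT1 (22743 bases), 4 in JPX (9658 bases), 2 in TUG1 (7469 bases) and 1 in OIP5-AS1 (8829 bases). MALAT1 held none in 8708 bases.

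**Figure D1:**
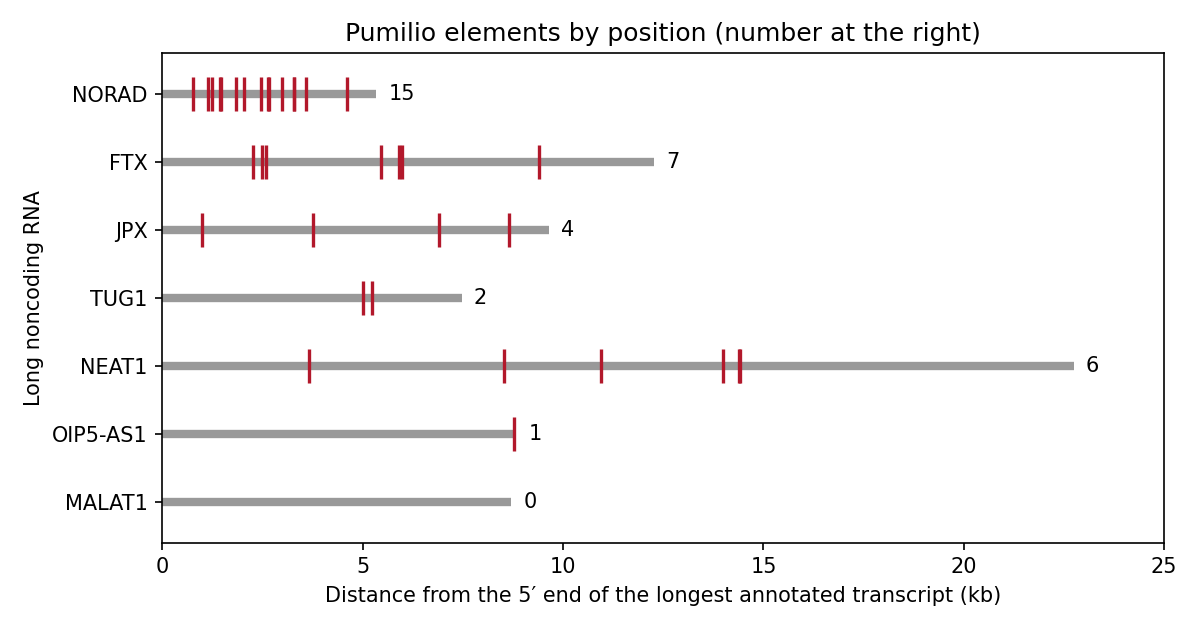
Pumilio elements along the longest annotated transcript of each of the 7 genes; the x axis is the distance from the 5′ end in kb, grey bars are transcripts, red ticks are elements and the number at the right is their count. NORAD holds 15 elements in 5339 bases, and MALAT1 holds 0 in 8708.

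Levels are given in FPKM, which divides a gene's fragments by transcript length and by library size, so they compare genes per length. MALAT1 was by far the most abundant member and the other whole genes lay between 13.7 and 142 FPKM. MALAT1 stood at 5421 FPKM in the RIP against 4361 FPKM in the input. It ranked 16 of 13075 rows in the RIP and 29 in the input. Its share of summed FPKM was 0.497% in the RIP and 0.288% in the input.

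JPX followed, at 95.4 FPKM in the RIP against 142 FPKM in the input. NEAT1 stood at 81.3 FPKM in the RIP against 112 FPKM in the input. TUG1 stood at 50.4 and 77.2 FPKM in the RIP and the input. These 3 kept the same order of levels in both libraries. NORAD stood at 30.6 FPKM in the RIP against 51.5 FPKM in the input. FTX stood at 47.2 FPKM in the RIP against 33.9 FPKM in the input. NORAD and FTX thus changed places, with FTX the more abundant in the RIP. OIP5-AS1 was the lowest, at 13.7 FPKM in the RIP against 22.6 FPKM in the input. With 1 library per group, the spread that would separate neighbours in this order is not known.

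**Figure D2:**
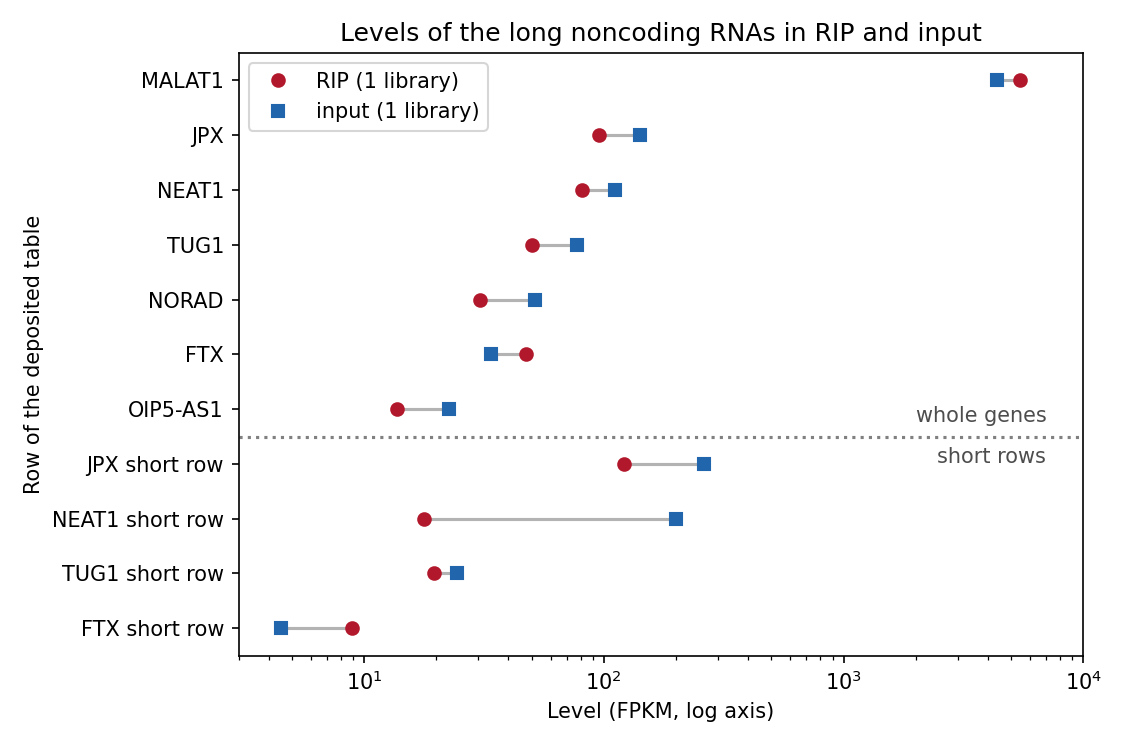
Level of each member row in FPKM (log axis) in the RIP (red circles) and the input (blue squares), 1 library each; whole genes are above the dotted line and short rows below it. MALAT1 (5421 and 4361 FPKM) stands far above the other whole genes, and MALAT1, FTX and the FTX short row are higher in the RIP.

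The comparison of RIP with input asked which RNAs were held with tagged TOP3B. It was expressed as log2((RIP + 1)/(input + 1)), so it understates differences of low rows. Over the 11990 rows with at least 5 FPKM in either library the median ratio was 0.13. All 11 member rows passed that floor, and the FTX short row passed it through the RIP only. Of the 7 whole genes, 5 lay below the median gene and 2 above it, with a median ratio of -0.57. With the 4 short rows added, 8 of 11 rows lay below and 3 above, the FTX short row among the latter, with the same median. Other long noncoding genes had a median of -0.10 over 567 genes (quartiles -0.55 and 0.48), and protein-coding genes 0.15 over 10500.

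Among the whole genes none was 2-fold apart, and 5 of 7 were lower in the RIP. Ratios below 0 were found in 41.2% of all genes and 55.6% of other long noncoding genes. Among other long noncoding genes with a mean level of at least 20 FPKM the share was 60.6%. Beside the shares of that class, a count of 5 of 7 says little about the members. Over the 11 rows 0 were at least 2-fold higher and 2, both short rows, at least 2-fold lower. The background was 4.90% of all genes higher and 2.50% lower. It was 12.0% and 5.82% among other long noncoding genes, a class that in GENCODE 29 also holds some short structured RNAs such as RMRP. With shares this low, 0 of 7 whole genes says little about the members. With the limit at 1.5-fold, 5 of the 11 rows were lower, against 10.2% of all genes, and 1 was higher, against 19.9%. The lower rows were NORAD, OIP5-AS1, TUG1 and the JPX and NEAT1 short rows, the last on about 0.7 RIP fragments. The higher row was the FTX short row, which passed the floor through the RIP only, so its sign is no result. No whole gene was higher at that limit. At that limit 23.8% of other long noncoding genes were lower and 22.4% higher, so the lower count was less unusual among them.

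NORAD, which sequesters Pumilio proteins, had the lowest ratio of the whole genes, -0.73. Of all genes above the floor 6.0% had a lower one, and of other long noncoding genes 15.2%. OIP5-AS1 was next at -0.68, with 7.2% of all genes lower. These 2 members known from the cytoplasm had the 2 lowest ratios at the pseudocount of 1 FPKM. With a pseudocount of 5 FPKM NORAD had -0.67, TUG1 -0.57 and OIP5-AS1 -0.56, so OIP5-AS1 was no longer next to NORAD.

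TUG1, a transcript linked to Polycomb repression, had a ratio of -0.61. JPX, a noncoding activator of XIST, had -0.57. NEAT1, the paraspeckle scaffold, had -0.45. Of all genes 9.6%, 10.7% and 14.9% had lower ratios than TUG1, JPX and NEAT1, and of other long noncoding genes 22.6%, 24.5% and 30.2%. All 5 lower members therefore lay in the lowest 15% of all genes. Among other long noncoding genes, 4 of these 5 lay below the lower quartile of -0.55, with NEAT1 above it. The longest transcript of each whole-gene member exceeded 5000 bases, and 28 other long noncoding genes of that kind had a median of -0.04, quartiles of -0.23 and 0.33 and a lowest ratio of -0.83. All 5 lower members lay below that lower quartile, while FTX at 0.47 lay above the upper quartile and MALAT1 at 0.31 just under it. The 5 were grouped by their low ratios, so their low places are in part set by that grouping.

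MALAT1, the speckle RNA, had a ratio of 0.31 and FTX, the other XIST neighbour, 0.47. Of all genes 63.0% and 73.2% had lower ratios than MALAT1 and FTX. Members known from the nucleus therefore stood on both sides of the input, with MALAT1 and FTX above it and NEAT1 and JPX below it. The libraries hold no cell fractions, so the nuclear or cytoplasmic place of each RNA was not measured.

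Directions depended in part on the scaling. Giving both libraries the same summed FPKM raised the median of all genes by 0.45 on the log2 scale, and equal sums over coding genes lowered it by 0.20. With equal summed FPKM the NEAT1 ratio was 0.01, while the other 4 lower whole genes stayed below 0. Each scaling multiplies a whole library by 1 factor, so a member's place relative to the median gene is nearly fixed and is no check on the scaling.

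**Figure D3:**
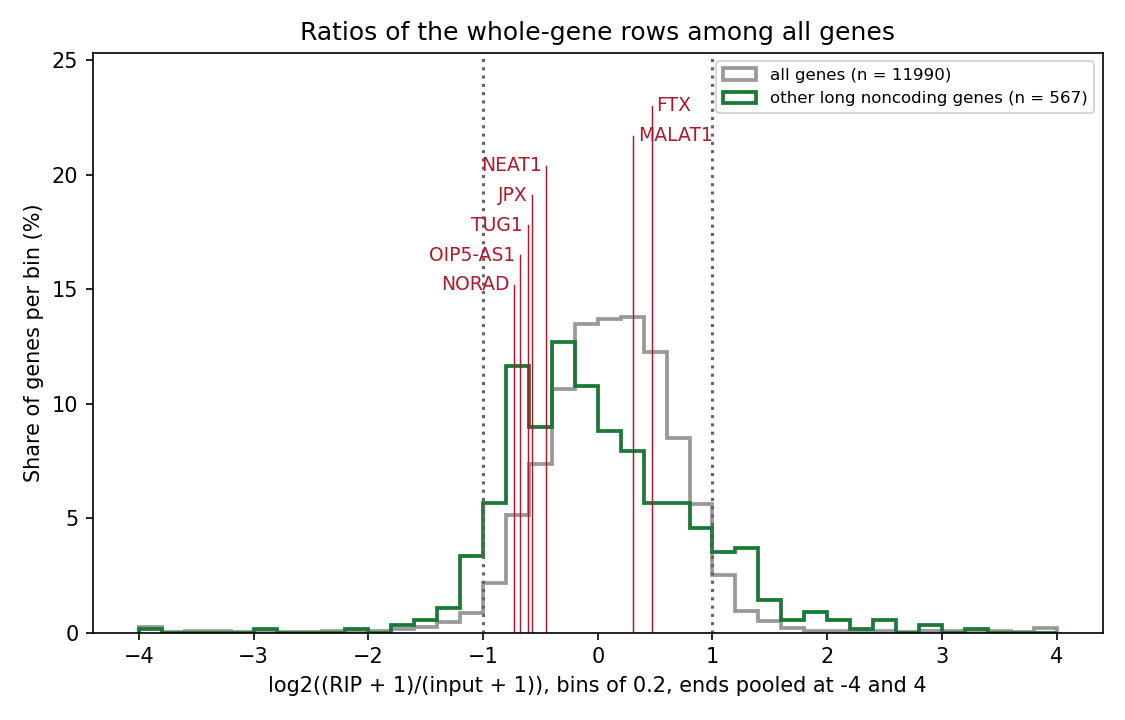
Distribution of log2((RIP + 1)/(input + 1)) in bins of 0.2 for all 11990 genes (grey) and 567 other long noncoding genes (green), as a share of genes per bin; red lines mark the 7 whole-gene members and dotted lines the 2-fold limits. NORAD, OIP5-AS1, TUG1, JPX and NEAT1 lie between -0.73 and -0.45, MALAT1 at 0.31 and FTX at 0.47.

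The depth behind these values was estimated from the steps in the values of rows with a single transcript, at 24850000 fragments for the RIP against 15350000 for the input. NORAD has 1 annotated transcript, so its level stood for about 3930 RIP fragments against 4090 input fragments. For genes with several transcripts the number depends on which was expressed. If all fragments came from the longest transcript, MALAT1 rested on about 1150000 RIP fragments against 572000 input fragments. On the same basis OIP5-AS1 rested on about 2950 and 3000, and with its shortest transcript of 473 bases on 106 and 108. Counting error was thus small for NORAD and, at their longest transcripts, for MALAT1 and OIP5-AS1. It would be larger for OIP5-AS1 at its shortest, and it was not set against the gaps between members. Counting error also says nothing of the spread between experiments.

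The 4 short rows measured stretches of 105 to 218 bases and rested on few fragments. In the deposited table their names had lost a numbered ending. By Ensembl identifier they are misc_RNA entries that GENCODE 29 lists under Rfam families, RF02124 (JPX), RF01882 (TUG1), RF01956 (NEAT1) and RF02122 (FTX). They are not measures of the whole gene. The JPX and NEAT1 stretches are printed because they gave the only differences past 2-fold. In both, capitals mark the bases that lie in exons of every host transcript overlapping the stretch.
JPX short row, chrX:73944332-73944466, plus strand: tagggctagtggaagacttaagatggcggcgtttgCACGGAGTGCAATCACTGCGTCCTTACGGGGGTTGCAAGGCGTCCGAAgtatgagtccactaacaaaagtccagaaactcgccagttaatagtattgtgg
NEAT1 short row, chr11:65423638-65423742, plus strand: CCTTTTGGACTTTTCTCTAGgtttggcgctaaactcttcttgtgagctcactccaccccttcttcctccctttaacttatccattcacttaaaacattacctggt

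The NEAT1 short row had the lowest ratio of all members. It stood at 17.8 FPKM in the RIP against 200.3 FPKM in the input, which gave a ratio of -3.42. At 105 bases, shorter than most fragments, 1 fragment was worth about 26.0 FPKM in the RIP against 42.1 FPKM in the input. The row therefore rested on about 0.7 RIP fragments against 4.8 input fragments, and the ratio cannot be read as a difference in NEAT1. The whole gene, which contains the stretch, had a ratio of -0.45.

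The JPX short row rested on more. It stood at 121 FPKM in the RIP against 260.7 FPKM in the input, a ratio of -1.10, on about 24.1 and 32.0 fragments. JPX as a whole had -0.57, in the same direction. All 13 annotated JPX transcripts overlap the stretch, which sits near the gene's 5′ end, and 1 holds it whole in an exon. Fragments from it can therefore be assigned to either row.

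The TUG1 short row, 145 bases, stood at 19.6 FPKM in the RIP against 24.4 FPKM in the input, on about 5.7 and 4.4 fragments. Its ratio of -0.30 was thus below 0 although it rested on more estimated fragments in the RIP, the deeper library. The FTX short row, 218 bases, stood at 8.93 FPKM in the RIP against 4.52 FPKM in the input, on about 13.6 and 4.3 fragments, a ratio of 0.85. GENCODE 29 places it on the strand opposite to FTX. With equal summed FPKM the TUG1 short row had a ratio of 0.15. The FTX short row passed the floor through the RIP, where it was the higher, so the sign of its ratio is no result. Among all rows above the floor with 1 transcript under 250 bases, 43.3% were at least 2-fold lower and 15.5% at least 2-fold higher, so 2 lower of 4 is close to that share. At 1.5-fold 62.1% of such rows were lower and 18.2% higher.

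The genomic neighbours of the members did not share their ratios in general. JPX and FTX overlap by 123854 bases on opposite strands of the X chromosome (JPX at chrX:73944184-74070408, plus; FTX at chrX:73946555-74293574, minus). Their annotated exons share 10580 bases, out of 13557 exonic bases in JPX and 28487 in FTX. The kit marks strand, but whether the counting used it is not given in the sources used here, so fragments from the shared exons may have been assigned to either gene. Their ratios differed in sign, -0.57 for JPX and 0.47 for FTX, and how far this rests on that assignment was not tested.

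OIP5-AS1 (chr15:41283990-41309737, plus) overlaps OIP5, a centromere protein gene on the other strand, by 470 bases. OIP5 stood at 6.85 FPKM in the RIP against 11.7 FPKM in the input, a ratio of -0.70 beside -0.68 for OIP5-AS1. TUG1 (chr22:30969245-30979395, plus) starts 946 bases from MORC2, a chromatin ATPase gene transcribed the other way. MORC2 stood at 34.3 FPKM in the RIP against 20.4 FPKM in the input, a ratio of 0.72 against -0.61 for TUG1. These pairs on opposite strands thus went together at OIP5 and apart at MORC2. The nearest non-overlapping coding genes were CHP1 and NUSAP1 around OIP5-AS1, with 0.43 and 0.42, and SMTN beside TUG1, with 0.89.

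MALAT1 (chr11:65497688-65506516, plus) and NEAT1 (chr11:65422774-65445540, plus) lie near each other. The nearest measured coding gene at lower coordinates, FRMD8, had a ratio of 0.11. NORAD (chr20:36045622-36050960, minus) lies between SCAND1, with a ratio of -0.06, and EPB41L1, with 0.48. Around JPX and FTX the nearest measured coding genes were CHIC1, with 0.09, and RLIM, with -0.48. RLIM encodes a ubiquitin ligase that promotes XIST expression. A further long noncoding gene, overlapping both JPX and FTX by 586 bases, stood at 8.42 FPKM in the RIP against 19.1 FPKM in the input, a ratio of -1.09.

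Of the 8 lists of genes linked to these RNAs, 6 had a median above that of all genes, whereas the members' median lay below it. Only their mRNAs were measured, not the proteins. The lists were not matched for length or level. The median was 0.31 over genes with a longest transcript of at least 5000 bases, and 0.21 over all genes at a floor of 20 FPKM. As background for the counts above 0, 7040 of all 11990 genes and 6390 of 10500 coding genes had a ratio above 0. At the 2-fold limit 384 of these coding genes were higher and 44 lower. The mRNAs of NORAD's partners were above 0 in 7 of 7 cases and above the median gene in 5, with a median of 0.42 and none past 2-fold. PUM2, a Pumilio protein that NORAD sequesters, stood at 58.8 FPKM in the RIP against 41.0 FPKM in the input, a ratio of 0.51. RBMX, an RNA-binding protein of the nucleus, was the lowest of them at 0.10. The abundant KHDRBS1 and CDC5L, an RNA-binding and a splicing protein, had 0.13 and 0.37. Of the 3 OIP5-AS1 partners, ELAVL1, which encodes HuR, had 0.00 and AGO2, the Argonaute that carries miRNAs, 1.21 (55.6 FPKM in the RIP against 23.5 FPKM in the input). GAK, a kinase gene, had 0.74.

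Of 17 nuclear speckle genes 16 lay above 0, with a median of 0.54. The splicing factor SRSF1 had the highest ratio, 0.89 (413 and 222 FPKM), and SRSF3 the lowest, -0.25. SRSF11 and SRSF7, of the same family, had 0.54 and 0.38. Of 19 paraspeckle genes 17 lay above 0 and 13 above the median gene, with a median of 0.29. PSPC1 and SFPQ, core paraspeckle proteins, had 0.98 (81.4 and 40.6 FPKM) and 0.87 (727 and 396 FPKM), HNRNPA1, a packaging protein of nuclear RNA, had 0.35, and ZNF24 had the lowest ratio, -0.27. No gene of either list was 2-fold apart, which says little because few coding genes were.

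The 12 measured genes for RNase P, RNase Z and triple-helix proteins, which make or bind the ends of MALAT1 and NEAT1, had a median of -0.05. POP1, the largest RNase P protein, had 0.91, ELAC2, the RNase Z, 0.68 and the small subunit RPP14 -0.86. POP4, another RNase P protein, had -0.20. X-inactivation genes had a median of 0.11, with 7 of 12 above 0, close to the share of all genes. HNRNPK, which links XIST to Polycomb, had the highest ratio, 0.76, and RLIM the lowest. HNRNPU, which anchors XIST, had 0.48 and WTAP, of the RNA methylation complex, 0.14. Polycomb and histone H3 lysine 9 writer genes had a median of 0.44, with 10 of 12 above 0 and 9 above the median gene. DNMT1, the maintenance DNA methyltransferase placed in that list, had 1.30 and was its 1 gene past 2-fold, and RNF2 had -0.39. The histone-binding RBBP7 and RBBP4 had 0.02 and 0.40. Of 5 measured genes of the KCNQ1 imprinted domain, NAP1L4, a histone chaperone, had 1.35 and CD81 -0.22, with a median of 0.65. CARS, a tRNA synthetase gene, had 0.82 and TSSC4 0.18.

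Other well-known long noncoding RNAs, outside the members, were closer to them. Of 32 listed 16 were measured, with a median of -0.19 and 13 below 0, against 55.6% of other long noncoding genes below 0. A floor of 20 FPKM in either library leaves out most genes of this list, LINC-PINT among them. The median of the few left was -0.55, whereas the 94 other long noncoding genes with a mean level of at least 20 FPKM had -0.17. TERC, the telomerase RNA, had the lowest ratio, -1.21 (8.65 FPKM in the RIP against 21.3 FPKM in the input), and was the 1 gene past 2-fold. LINC-PINT had the highest, 0.73. PVT1 (58.1 and 59.1 FPKM) and LINC01578 (51.9 and 61.6 FPKM) had -0.02 and -0.24.

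**Figure D4:**
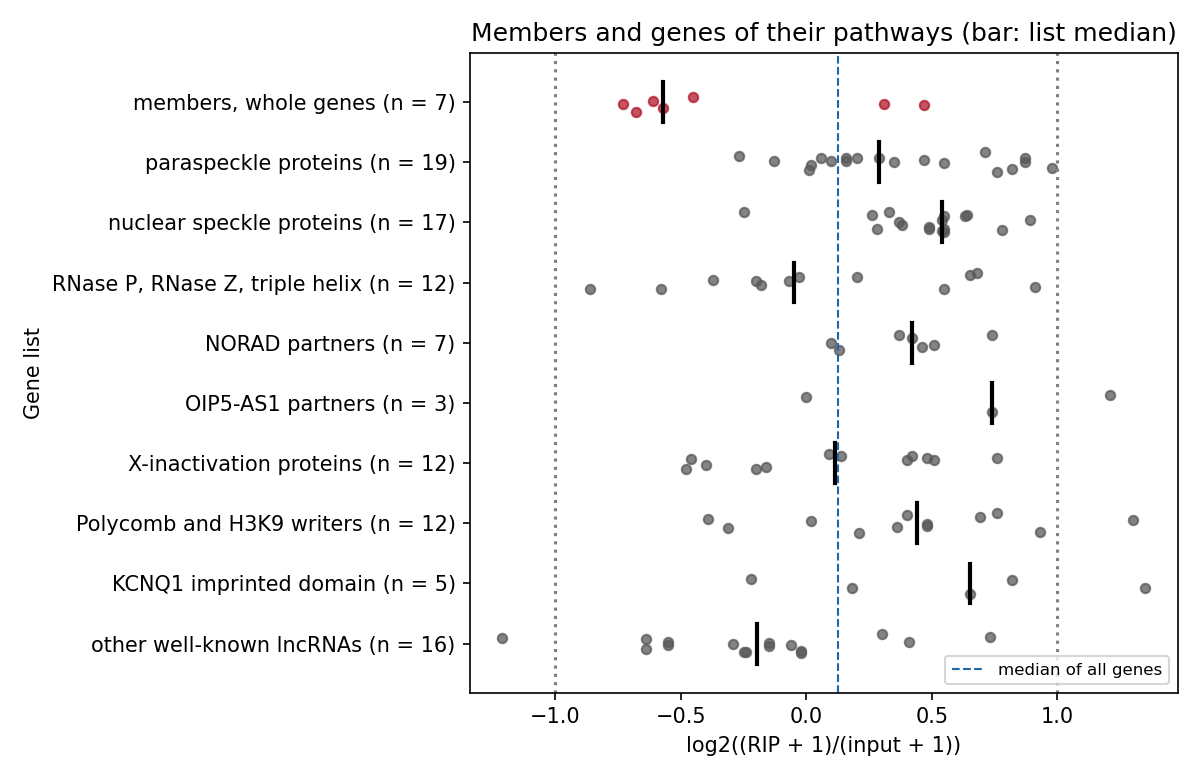
Log2((RIP + 1)/(input + 1)) of the 7 whole-gene members (red) and of the genes in 9 companion lists (grey); each point is a gene, black bars are list medians, the dashed line is the median of all genes and dotted lines are the 2-fold limits. The members' median is -0.57, and the speckle list (0.54) lies on the other side of the median gene.

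The long noncoding genes with levels most like each member were found by the distance between log2(FPKM + 1) values over the 2 libraries. For MALAT1 this was XIST, at 5861 FPKM in the RIP against 4762 FPKM in the input, a distance of 0.17. The ratio of XIST was 0.30 beside 0.31 for MALAT1. XIST, which lies next to JPX and FTX, had a level 61.4-fold that of JPX in the RIP and 33.6-fold in the input.

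For NEAT1 the most alike gene was RP11-161H23.5 (distance 0.02), for JPX CH17-373J23.1 (0.08) and for OIP5-AS1 CTC-246B18.10 (0.08). NORAD lay nearest to SNHG22 (0.11), TUG1 to SNHG6 (0.18) and FTX to THUMPD3-AS1 (0.24). SNHG22 and SNHG6 are snoRNA host genes. Likeness rests on 2 values per gene, so it means a similar level and ratio.

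The transcript of the bait, TOP3B, stood at 30666 FPKM in the RIP against 15062 FPKM in the input. Of the 6 HEK293 markers looked for, 5 were in the table (KRT8, KRT18, VIM, NEFM and NEFL), with ratios from 0.32 to 0.58. Liver and blood markers gave no values here, and the fibroblast marker COL1A1 stood at 7.45 and 2.19 FPKM.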

How the data were processed

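RNA was measured in 1 RIP and 1 input library, grouped by sample title. Per the submitters' processing notes the tools were cutadapt 1.18, Trimmomatic 0.3, STAR 2.6.1 and RSEM 1.2.31 with hg38. The sources used here do not state the settings, strand handling, annotation release or low-value filter. The authors deposited 1 value per gene and library, taken as FPKM because the unit is not named, the values carry decimals, and their sums differ (1090243 in the RIP, 1512049 in the input). Names split over columns were rejoined in 36 rows.

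Rows were matched by Ensembl identifier to GENCODE 29 on GRCh38, the assembly of hg38 (12983 rows, 99.3%). Identifier versions of MALAT1, NEAT1, FTX, JPX and TUG1 differ from that release, so their transcript models may differ. The ratio used a pseudocount of 1 FPKM and a floor of 5 FPKM in either library. A 2-fold limit took the place of a test.

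Depth was estimated by searching for the number of fragments that made values whole. Of rows of at least 400 bases 67.7% in the RIP (99 rows) and 63.8% in the input (218 rows) lay within 0.15 of a whole number, against 30.0% without steps. A curve of fragment length (mean 163, SD 52 bases) gave 64.4% and 59.3% for short rows. The search and the counting were tested on simulated data.

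Members and lists were chosen with earlier results of these data known. Named were all members, the highest and lowest gene of each list and up to 2 abundant ones, neighbours, the most alike genes and the bait; PUM2 was named outside that rule, after its values were seen, and some genes that the rule selects are not reported here. Python 3.11.15, numpy 2.4.6, pandas 2.3.3 and matplotlib 3.10.9 were used.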

Additional observations from a re-analysis of the deposited data

How the results depend on the processing

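No paired analysis was possible because only 1 library stands in each group, and leaving out a replicate was not possible. Values were counted as moved past 0.1 log2 or 1.5 times. Of the members' ratios 18 were counted as unchanged, 35 as moved and 2 changed sign, both with the same summed FPKM per library (NEAT1 0.01, TUG1 short row 0.15). Causes were not tested.

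The member median of -0.57 became -0.70 centred on the median gene, -0.10 with the same summed FPKM and -0.77 with the same sum over coding genes. Of the 11 rows, 0 higher and 2 lower became 1 and 1 with the same summed FPKM and 1 and 5 at 1.5-fold, with 1 lower at 4-fold. The higher row was the FTX short row in both settings. Whole genes alone (added after seeing the data) gave 0 lower and 5 below 0, and rows of at least 20 estimated fragments (added) 1 lower.

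Against 588 higher and 300 lower among all genes, pseudocount 5 gave 300 and 180, centring 365 and 450, the same summed FPKM 2608 and 132, the same coding sum 283 and 537 with a median of -0.07, floor 20 352 and 157, the 1.5-fold limit 2386 and 1222, and the 4-fold limit 79 and 84. Long noncoding genes alone, members included, gave 68, 33 and a median of -0.11, genes with a transcript of at least 5000 bases 206 and 9, and short rows (added) 51, 143 and -0.79.

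The X-inactivation median changed to -0.01 on centring and -0.09 with the coding sum. With the same summed FPKM the RNase list changed to 0.40 and other well-known long noncoding RNAs to 0.26. Depth limits the short rows most.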

Other observations

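Other numbered short rows named after long noncoding RNAs were in the table. PVT1 had one of 194 bases at 20.1 FPKM in the RIP against 8.72 FPKM in the input, on about 20.8 and 5.6 estimated fragments. DLEU2 had one of 136 bases at 134 and 161 FPKM, on about 27.8 and 20.7 fragments. HOTAIRM1 had one of 145 bases at 18.4 and 21.4 FPKM, on about 5.4 and 3.9 fragments. The whole genes PVT1, DLEU2 and HOTAIRM1 had log2 ratios of -0.02, -0.06 and -0.29. These 3 were chosen after their values were seen.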
